A study of Mus musculus with 2 samples.

Results

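The high mobility group (HMG) chromatin proteins were examined as 9 genes, *Hmgb1*, *Hmgb2*, *Hmgb3*, *Hmga1*, *Hmga2*, *Hmgn1*, *Hmgn2*, *Hmgn3* and *Hmgn5*, out of 22156 rows in the expression table. They were found by gene symbol, and all 9 reached 10 counts over the pair of libraries, the filter used here. The set was chosen by family name with results on its measured values, the counts of both libraries, already known, so these are given as a description, without a test.

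HMG proteins are abundant non-histone proteins that bind DNA or nucleosomes and change how tightly chromatin is packed. HMGB proteins bend DNA through a pair of HMG boxes, HMGA proteins bind the minor groove of AT-rich DNA through short AT-hooks, and HMGN proteins sit on the nucleosome core and compete with linker histone. In cartilage, HMGB2 is known as a marker of the superficial zone. HMGB1 can leave cells and act as an inflammatory signal. HMGA proteins are known both in proliferating embryonic cells and in the chromatin foci of senescent cells.

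RNA was sequenced from primary chondrocytes that were isolated from newborn mice and kept in monolayer culture without treatment, with 1 library per genotype, control and *Myl3*-KO. The labels give rib cartilage as the tissue, whereas the study's methods name rib and articular cartilage. The control genotype is labelled WT, while the study's methods describe controls as littermates with *Myl3* flox/flox and no Cre. The *Myl3*-KO mice were *Col2a1*-Cre; *Myl3* flox/flox, so that the recombinase was driven by a promoter of the chondrocyte lineage. Whether cells of several animals were pooled is not stated in the sources used here. The comparison asks which HMG genes differed in level after deletion of *Myl3*, which encodes a myosin light chain. It has no replicate check, and every interval below covers counting error only.

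The library totals were 17612435 counts (control) and 13477977 (*Myl3*-KO). *Myl3* had 0 counts in both, so the targeted gene could not check the labels, and directions rest on them. Of the chondrocyte markers, *Acan*, *Matn1*, *Matn3* and *Hapln1* were at 0 in both libraries. *Col2a1*, whose promoter drove the recombinase, had only 30 control counts and 27 *Myl3*-KO counts. *Col9a1* and *Comp* had at most 2 counts in either library. The 9 markers in the table summed to 57.8 CPM (counts scaled to a fixed library total) against 45.2 CPM. The control value comes first here and in all pairs of values that follow. *Sox9* made up 49.2 and 35.6 CPM of these sums. Of the 3 chondrocyte markers that reached 10 counts, *Sox9* was lower in *Myl3*-KO by CPM and 2 were higher. The counting intervals of these 2, *Col2a1* and *Col11a1* (121 and 99 counts), included equality of the libraries, and that of *Sox9* did not. The 6 fibroblast markers summed to 14784 and 16897 CPM, most of it type I collagen, with *Thy1* at 0. Muscle, immune, endothelial and erythroid markers summed to at most 2.45 CPM per list in either library. In bulk RNA, fewer cells of a type and less RNA per cell cannot be told apart.

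Both HMGA genes, the least abundant of the set as estimated, were higher in the *Myl3*-KO library. The level of *Hmga1*, part of the HMGA sum below, depends on how reads shared with other genes were divided. The 4 most abundant genes, *Hmgb1*, *Hmgn2*, *Hmgn1* and *Hmgb2*, were lower in *Myl3*-KO. In contrast, *Hmgb3*, *Hmgn3* and *Hmgn5* lay near equality. Summed over the set, the HMG genes took 0.259% of the control library and 0.220% of the *Myl3*-KO library. By class, the log2 ratio, *Myl3*-KO divided by control, was -0.24 for HMGB (95% interval -0.27 to -0.22), -0.25 for HMGN (-0.28 to -0.21) and 0.91 for HMGA (0.69 to 1.13). These ratios are of counts divided by the library total, beside a median of 0.02 over the 12431 genes tested, those reaching 10 counts.

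Genes were counted past a log2 ratio of 0.5 in size, 1.41-fold. Past it, 2 of the 9 HMG genes were higher in *Myl3*-KO (*Hmga2*, and *Hmga1*, whose place depends on how shared reads were divided), where 7.99% of all genes tested were higher, and 0 of 9 were lower, where 3.75% of all genes were. Low counts spread the ratios, and among genes with at least 500 counts the share past 0.5 higher was 1.61%, with 1 of 8 HMG genes (*Hmga2*) there. At the smaller limit of 0.25, 4 of 9 HMG genes were lower beside 14.1% of all genes, and at a limit of 1, 0 of 9 were higher beside 2.16%. Among genes with at least 1000 counts, the depth of the other 7 members, these 4 were lower beside 11.0%. Of these 4, *Hmgb1* (-0.251) and *Hmgn1* (-0.257) lay close to the limit of 0.25, with intervals that cross it.

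**Figure D1:**
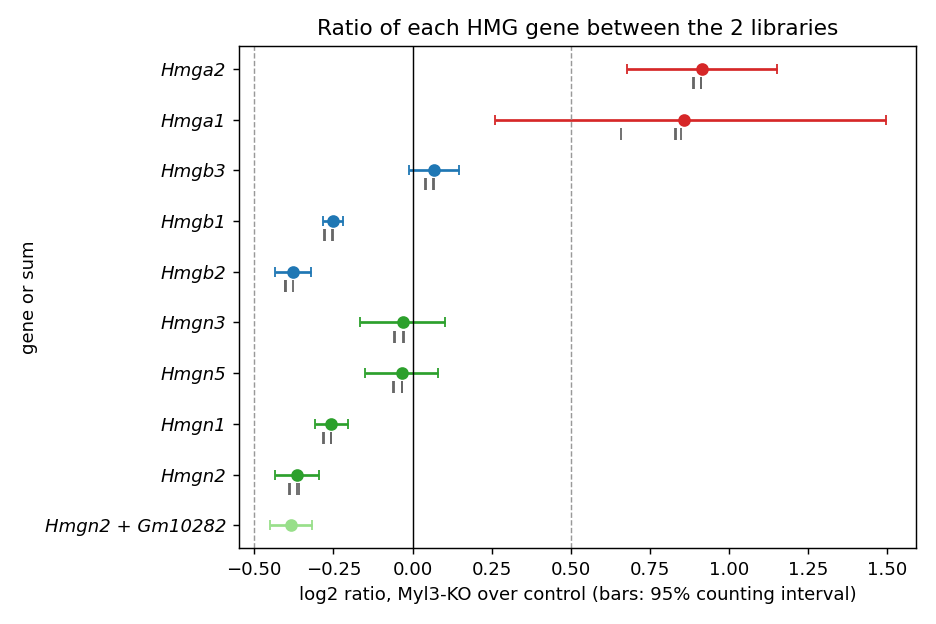
Log2 ratio, *Myl3*-KO over control, for each HMG gene (points, with 95% counting intervals as bars), ordered by class, with the sum of *Hmgn2* and its counted copy in a paler colour. Grey ticks mark the ratio under other scalings, the deposited FPKM and 1 added count, and dashed lines mark 0.5 in either direction. *Hmga2* and *Hmga1* lie at 0.91 and 0.86.

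**Figure D2:**
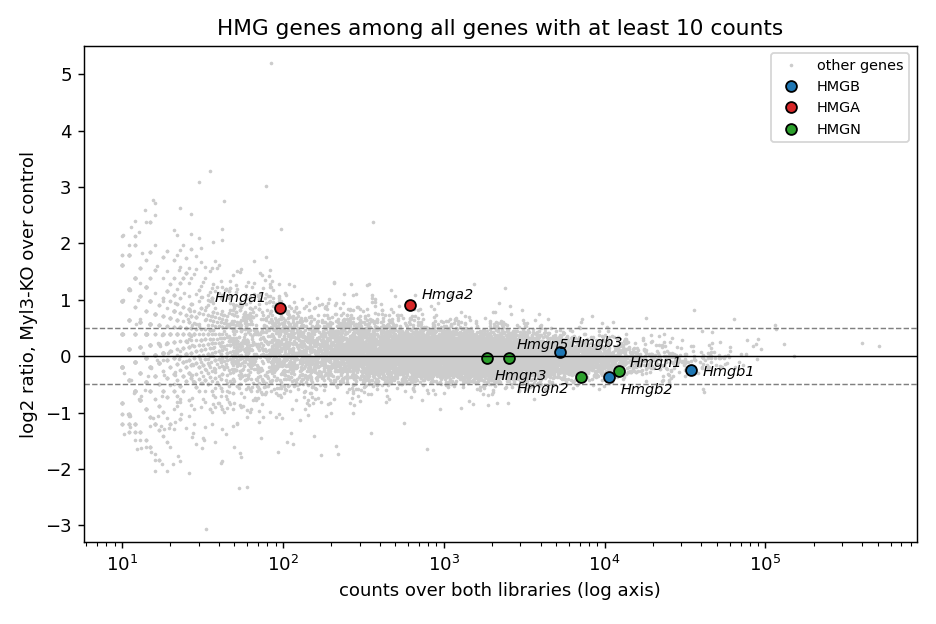
Log2 ratio, *Myl3*-KO over control, against counts over both libraries (log axis), with each grey point 1 of the 12431 genes tested and the HMG genes in colour. The grey cloud is widest at low counts. *Hmga2* stands at its upper edge for its depth and *Hmga1* lies in the wider part of the cloud, while *Hmgb2* and *Hmgn2* lie toward the lower edge.

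*Hmga2* (ENSMUSG00000056758, chr10:120361275-120476469 on GRCm38, minus strand) encodes an embryonic architectural protein that is low in most adult tissues. The control library had 254 counts of it and the *Myl3*-KO library 366, or 14.4 and 27.2 CPM. The *Myl3*-KO library was the higher, although it held fewer reads in all. The ratio was 1.88-fold (95% interval 1.60 to 2.22), a log2 ratio of 0.91 (0.68 to 1.15). Of the 7766 genes with at least as many counts (*Hmga2* included, as in the like counts of genes below), 6 had a higher ratio. They were *Wisp2*, *Plxna2*, *Aldh3a1*, *Jag1*, *Omd* and an assembled locus without an Ensembl identifier, named here after their values were seen.

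*Hmga1* (ENSMUSG00000046711, chr17:27556497-27563674, plus strand), the close relative of *Hmga2*, was given 40.08 estimated control counts and 55.56 *Myl3*-KO counts, or 2.28 and 4.12 CPM. Again the *Myl3*-KO library was higher, at a level where counting error is wide. The log2 ratio was 0.86 (0.26 to 1.49), and 54 of the 10532 genes with as many counts had a higher one. The ratio of the deposited FPKM was smaller, 0.66 on the log2 scale. The length implied by count and FPKM was 1198 bases in the control and 1374 in *Myl3*-KO.

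The counts of *Hmga1* were not whole numbers, so the estimate divided reads between genes. Of the 31-base words in its transcripts, 62.1% lie in other genes of the table, the highest share among the HMG genes. Its level, its rank in the set, its ratio and its place past 0.5 depend on that division, which the counting interval does not cover. *Hmga1* also overlaps *AI413582* on the opposite strand, which had 42 and 21 counts, and whether the counting used strand is not given in the sources used here. In the same way *Hmgb1* overlaps *Uspl1*, which had 2195 and 1509 counts.

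The coding stretches with the AT-hooks are shown because *Hmga1* and *Hmga2* can be told apart by their letters there. They are bases 61 to 276 of the 324 of *Hmga1* and bases 70 to 255 of the 327 of *Hmga2*, from GENCODE M21 on GRCm38, 5′ to 3′, with the codons of the 3 AT-hook cores in capitals. The cores start at bases 76, 172 and 250 of *Hmga1* and at bases 85, 145 and 229 of *Hmga2*.
Hmga1: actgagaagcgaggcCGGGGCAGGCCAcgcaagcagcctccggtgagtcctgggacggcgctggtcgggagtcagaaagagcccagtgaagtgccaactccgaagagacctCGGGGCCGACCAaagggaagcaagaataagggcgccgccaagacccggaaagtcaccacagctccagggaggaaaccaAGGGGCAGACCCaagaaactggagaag
Hmga2: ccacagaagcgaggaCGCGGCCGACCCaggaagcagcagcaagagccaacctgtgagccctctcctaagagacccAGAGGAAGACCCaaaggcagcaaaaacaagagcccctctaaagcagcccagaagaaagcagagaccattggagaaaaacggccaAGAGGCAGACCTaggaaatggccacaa

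*Hmga2* is a textbook target of the let-7 microRNA family, which binds the 3′ untranslated region of its mRNA, while Lin28 proteins block let-7 maturation. The mature let-7a sequence is given from RefSeq (GRCm38.p6), with the seed, bases 2 to 8, in capitals. The same seed is found in 11 distinct mature sequences.
mmu-let-7a-5p: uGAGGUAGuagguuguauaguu
The letters CTACCTC, complementary to that seed, occurred 4 times in the 3′ untranslated region of *Hmga2* (3014 bases, transcript model Hmga2-203), as these windows show with the match in capitals.
Hmga2 site 1: gccgacattcaatttCTACCTCagcatc
Hmga2 site 2: ccccactcctcaataCTACCTCtgaatg
Hmga2 site 3: ctgatttgcaaggaaCTACCTCcacact
Hmga2 site 4: aatcaaaacacactaCTACCTCttaagt
Matches in *Hmga1* numbered 1, and the other 7 HMG genes had 0. At least 4 matches were found in 12 of 20966 genes with such a region (0.0572%). A match of letters is a description, and mature microRNAs are not among the values used here.

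Genes with at least 3 of these matches numbered 21 among those tested, with a median log2 ratio of 0.07, beside 0.01 for genes without a match. Of the 21, 5 were past 0.5 higher (23.8%), *Hmga2* among them, and without it 4 of 20 were (20.0%), against 7.42% of all tested genes with a 3′ untranslated region. With fewer matches this share was 7.25% (0 matches), 8.74% (1 match) and 7.19% (2 matches). These were *Hmga2*, *Nr6a1* (log2 ratio 0.58), *Mcf2l* (0.62), *Slc22a23* (0.64) and *Tmem198b* (0.65), and the cut at 3 matches and the names were chosen after the values were seen. These 5 genes had between 213 and 748 counts over both libraries. Ratios spread more at low counts, and the shares set side by side here were not matched for depth. The 3′ untranslated regions of genes with 3 or more matches were also longer, with a median of 5008 bases against 961 over all genes.

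Of the let-7, Lin28 and *Hmga2* axis, a list of processing enzymes and known targets, 12 of 16 genes in the table were tested and 0 passed 0.5 in either direction. The list median was 0.04 beside 0.02 for all genes tested, with 8 genes above 0 and 4 below. *Lin28a* and *Trim71* were at 0 in both libraries, and *Lin28b* had 3 control counts and 1 *Myl3*-KO count. *Igf2bp2*, an RNA-binding protein gene known as a target of HMGA2, had 290 and 292 counts, a log2 ratio of 0.40 (0.16 to 0.64). *Igf2bp1*, which also has 4 matches, had 813 and 669 counts, a log2 ratio of 0.10 (-0.05 to 0.25). *Dicer1*, the enzyme that cuts microRNA precursors, had 1120 and 930 counts (log2 ratio 0.12, -0.01 to 0.24).

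*Hmgb1* (ENSMUSG00000066551, chr5:149046702-149184489, minus strand) encodes the ubiquitous DNA-bending protein that acts as an alarm signal outside the cell. It was the most abundant HMG gene, at 21088 control counts and 13557 *Myl3*-KO counts, or 1197 and 1006 CPM. The *Myl3*-KO library was lower, with a log2 ratio of -0.25 (-0.28 to -0.22), or 1.19-fold. Only 74 genes had at least as many counts, of which 3 had a lower ratio, namely *Ldha* (-0.63), *Pgk1* (-0.58) and *Rbm3* (-0.29), again named after their values were seen.

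*Hmgb2* (ENSMUSG00000054717, chr8:57511907-57515999, plus strand), whose product is tied to proliferating cells and to the cartilage surface, was at 6731 control counts and 3969 *Myl3*-KO counts, or 382 and 294 CPM. The *Myl3*-KO library was again lower. Its log2 ratio of -0.38 (-0.43 to -0.32) was the lowest of the set, and 10 of 421 genes with as many counts had a lower one. *Hmgb3* (ENSMUSG00000015217, chrX:71555918-71560676, plus strand), a relative expressed mainly in embryos and stem cells, was at 2935 control counts and 2354 *Myl3*-KO counts, or 167 and 175 CPM. The log2 ratio was 0.07, and its interval of -0.01 to 0.15 did not overlap those of *Hmgb1* or *Hmgb2*.

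The HMGB genes thus stood in other proportions in each library. On the FPKM scale, *Hmgb2* was 1.47 times *Hmgb3* in the control and 1.06 times in *Myl3*-KO. *Hmgb1* made up 77.6% of the FPKM summed over the class in the control and 76.9% in *Myl3*-KO. *Hmgb3* stood at 9.05% and 11.2%, and *Hmgb2* at 13.3% and 11.9%.

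*Hmgn1* (ENSMUSG00000040681, chr16:96120618-96127729, minus strand) and *Hmgn2* (ENSMUSG00000003038, chr4:133964738-133968650, minus strand) encode the ubiquitous nucleosome-binding proteins. *Hmgn1* was at 7503 control counts and 4805 *Myl3*-KO counts, or 426 and 357 CPM, and *Myl3*-KO was lower (log2 ratio -0.26, -0.31 to -0.20). *Hmgn2* had 4489.3 and 2669.92 estimated counts, or 255 and 198 CPM, and *Myl3*-KO was lower here too (log2 ratio -0.36, -0.43 to -0.29). Among genes with as many counts, a lower ratio was found for 36 of 349 beside *Hmgn1* and for 22 of 791 beside *Hmgn2*.

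*Hmgn3* (ENSMUSG00000066456, chr9:83109948-83146685, minus strand) and *Hmgn5* (ENSMUSG00000031245, chrX:109004534-109013404, minus strand) encode family members with a more restricted expression. *Hmgn3* was at 1065 control counts and 798 *Myl3*-KO counts, or 60.5 and 59.2 CPM, a log2 ratio of -0.03 (-0.16 to 0.10). *Hmgn5* had 1456 and 1088 counts, or 82.7 and 80.7 CPM, also a log2 ratio of -0.03 (-0.15 to 0.08). Both intervals include equality of the libraries, which at this depth leaves differences of about their width undetected.

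Reads of *Hmgn2* were shared with *Gm10282*, an annotated copy that holds 28.5% of its 31-base words and had 303.7 and 142.08 counts. Their sums were whole, 4793 and 2812, with a log2 ratio of -0.38 (-0.45 to -0.32), so the lower level in *Myl3*-KO did not turn on the division of reads. The codons of the nucleosome-binding core, which all HMGN proteins share, show the likeness of the copy. They are from GENCODE M21 transcripts, with bases that differ from *Hmgn2* in capitals.
Hmgn2: agaagatctgcgaggttgtctgct
Gm10282: agaagatctgcgaggttgtctgct
Hmgn1: CgCCgCtcCgcgaggCtgtcGgcC
Hmgn3: agaCgGtcGgcCaggttgtcCgcG
Hmgn5: agaagatcAgcCCgACtgtctgct
*Gm10282* had 0 differences from *Hmgn2* over these bases, while *Hmgn1* had 8, *Hmgn3* had 6 and *Hmgn5* had 5. *Hmgb1* has many processed pseudogenes, and 85 of the 88 genes that share at least 100 words with it are annotated as such. Of the words of *Hmgb1*, 24.7% lie in other annotated genes and 3.34% in other genes of the table. For *Hmgb3* and *Hmgn5*, 33.0% and 23.5% of the words lie in other annotated genes. For *Hmgb2* the share was 21.4%, with 3.27% in other genes of the table. How reads shared with genes outside the table were handled is not given in the sources used here.

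Levels of different genes were compared per length, by the deposited FPKM. *Hmgb1* was at 901.75 FPKM in the control and 755.28 in *Myl3*-KO, ranks 71 and 78 among all genes. *Hmgn2* (204.98 and 159.99), *Hmgn1* (195.95 and 163.99), *Hmgb2* (154.54 and 116.79) and *Hmgb3* (105.13 and 110.06) followed. Next came *Hmgn3* (60.62 and 59.49), *Hmgn5* (42.75 and 41.74), *Hmga2* (3.89 and 7.32) and *Hmga1* (1.9 and 3.0). The order was the same in both libraries for 7 of the 9 genes, since *Hmgn1* and *Hmgn2* changed places, but the counting intervals of that pair overlapped in each library. The intervals of *Hmgb2* and *Hmgb3* overlapped in *Myl3*-KO, and those of all other neighbours were apart in both libraries. The last place of *Hmga1* rests on how shared reads were divided, which its interval does not cover. The distance between *Hmgb1* and *Hmga2* was smaller in *Myl3*-KO, where *Hmgb1* was 103 times *Hmga2* in FPKM, against 232 times in the control.

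**Figure D3:**
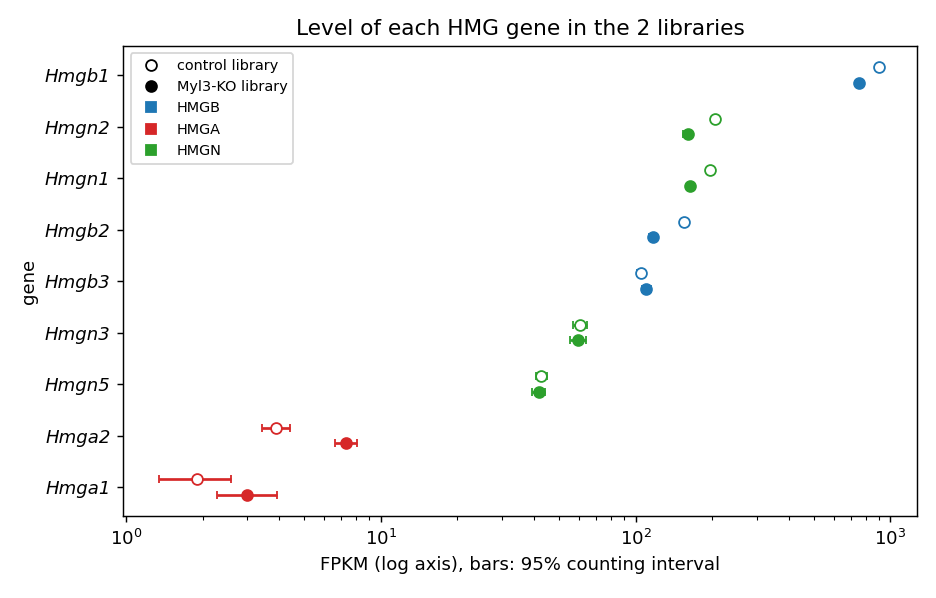
FPKM of each HMG gene (log axis) in the control library (open points) and the *Myl3*-KO library (filled points), coloured by class, with 95% counting intervals as bars. *Hmgb1* lies highest in both libraries, at 901.75 and 755.28 FPKM, and the HMGA genes lie below 10 FPKM. The level of *Hmga1* depends on how shared reads were divided.

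The promoters were compared because *Hmgb1*, *Hmgb2*, *Hmgn1* and *Hmgn2* were lower together while the HMGA genes were higher. RefSeq windows on GRCm38.p6, from 250 bases before to 50 after the start, were found for 8 of the 9 genes. Motifs were searched on both strands: the CCAAT box (CCAAT) and the cell cycle homology region (CHR, TTTGAA or TTCGAA), elements known from cell cycle genes, and the E2F site (TTTCCCGC, TTTGGCGC, TTTCGCGC or TTTGCCGC). E2F letters were found in 0 of the members' windows, beside 2.26% of all promoters with at least 1. The promoter of *Hmgb2* held 4 CCAAT boxes, a number reached by 1.06% of 32851 promoters, and 2 CHR matches, reached by 2.54%. *Hmgb3* held 3 CCAAT boxes and 1 CHR match, although its level differed little between the libraries, and *Hmgb1* held 3 CCAAT boxes at its upstream start and 0 at its downstream one. *Hmgn1* and *Hmgn5* each held 2, *Hmgn2* held 1, and *Hmga1* and *Hmga2* held 0. At least 1 CCAAT box was present in 37.4% of promoters, at least 2 in 11.7% and at least 3 in 3.37%.

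The windows at either end of the range of ratios are printed, 250 bases up to the start and 5′ to 3′ along the gene. In that of *Hmgb2* (chr8:57511593-57511842, plus strand) capitals mark CCAAT boxes and CHR letters, 1 of the latter on the opposite strand. In that of *Hmga2* (chr10:120476470-120476719, minus strand) capitals mark the longest unbroken run of C and T, 23 bases, and 3.56% of promoters held a run of purines or pyrimidines at least as long. Pyrimidines made up 70.8% of the *Hmga2* window, a share reached by 0.414% of promoters.
Hmgb2 promoter: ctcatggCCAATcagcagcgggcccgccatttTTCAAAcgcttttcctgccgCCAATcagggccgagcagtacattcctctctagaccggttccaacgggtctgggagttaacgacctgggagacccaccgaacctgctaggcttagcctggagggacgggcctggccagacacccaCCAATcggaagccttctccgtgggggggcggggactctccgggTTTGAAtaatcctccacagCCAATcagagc
Hmga2 promoter: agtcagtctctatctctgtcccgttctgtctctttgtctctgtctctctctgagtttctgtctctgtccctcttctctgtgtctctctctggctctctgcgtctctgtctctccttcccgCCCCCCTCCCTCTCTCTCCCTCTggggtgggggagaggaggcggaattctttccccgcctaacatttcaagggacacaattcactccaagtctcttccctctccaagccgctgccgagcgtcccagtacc
No binding was measured, so these letters are a description of the windows alone.

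Genes that share a domain or a task with the HMG proteins were set beside them by list. For comparison, 47.3% of all genes tested had a log2 ratio below 0, and 52.5% of those with at least 1000 counts. Other HMG-box proteins, which carry the box as part of transcription or remodelling factors, had 18 of 22 genes tested. Of these, 1 was past 0.5 higher and 0 lower, with a median of 0.00. That gene was *Lef1*, a Wnt pathway factor with 40 and 54 counts and a log2 ratio of 0.82 (0.20 to 1.45). *Hmgb4*, *Tox2* and *Tox3* were at 0 in both libraries.

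Linker histones, with which HMGB and HMGN proteins compete on nucleosomes, had 5 of 9 genes tested, a median of -0.07, 0 past 0.5 higher and 1 lower. The gene past the limit, *Hist1h1d*, had 10 and 4 counts, and the median was the ratio of a gene with 11 and 8 counts. *Hist1h1t* and *H1fnt* were at 0 in both. *H1f0*, the linker histone of resting cells, had 3348 and 2709 counts and a log2 ratio of 0.08.

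Histone chaperones had 17 of 21 genes below 0 and 4 above, with a median of -0.13. Past 0.5, 0 were higher and 1 was lower, *Npm3* (1578 and 815 counts, log2 ratio -0.57, -0.69 to -0.44). *Anp32e*, which removes H2A.Z from chromatin, followed at -0.41, *Asf1b* at -0.33 and *Nasp* at -0.32, both carriers of histones H3 and H4. Chromatin architecture genes (cohesin, condensin, lamina and heterochromatin proteins) had 18 of 22 below 0 and a median of -0.17, with 0 past 0.5 in either direction. The condensin genes *Ncapg* (-0.40) and *Smc2* (-0.39), the lamin B receptor *Lbr* (-0.37) and *Banf1* (-0.31), which tethers chromatin to the lamina, were the farthest from 0.

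The SET complex and DNA repair partners of HMGB proteins had 9 of 12 genes below 0 and a median of -0.11, and 0 passed 0.5. *Nme1* (-0.45), *Fen1* (-0.36) and *Set* (-0.23) were among the farthest from 0. The receptors and partners of extracellular HMGB1 had 9 of 12 genes tested and a median of 0.07, with 1 higher and 1 lower past 0.5. These were *Ly96*, a partner of TLR4, with 55 and 69 counts (log2 ratio 0.71, 0.18 to 1.25), and *Cxcr4* with 23 and 6 counts (-1.55, -3.14 to -0.22). *Tlr9* and *Thbd* were at 0 in both libraries, and *Ager*, which encodes the receptor RAGE, had 25 and 24 counts.

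Proliferation genes lay on the same side of 0 as the 4 abundant HMG genes. All 16 had a log2 ratio below 0, against 52.5% of genes with at least 1000 counts. They ran from -0.53 (*Tyms*) to -0.02 (*Mki67*), with a median of -0.29, and 2 were past 0.5 lower (*Tyms* and *Cdk1*, -0.52). *Mki67*, a proliferation marker with 7698 and 5796 counts, had an interval of -0.07 to 0.03, which included equality. *Ccnb1* was at -0.48 and *Aurka* at -0.36. The list summed to 3849 CPM in the control and 3197 in *Myl3*-KO. The part of this in the lower levels of *Hmgb1*, *Hmgb2*, *Hmgn1* and *Hmgn2* was not tested. Of the chondrocyte and fibroblast markers, *Sox9* (-0.47), *Dcn* (-1.64) and *Pdgfra* (0.61) also differed between the libraries, and their part was not tested either. The medians of these lists, over 3 and 5 genes tested, were 0.10 and 0.15.

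**Figure D4:**
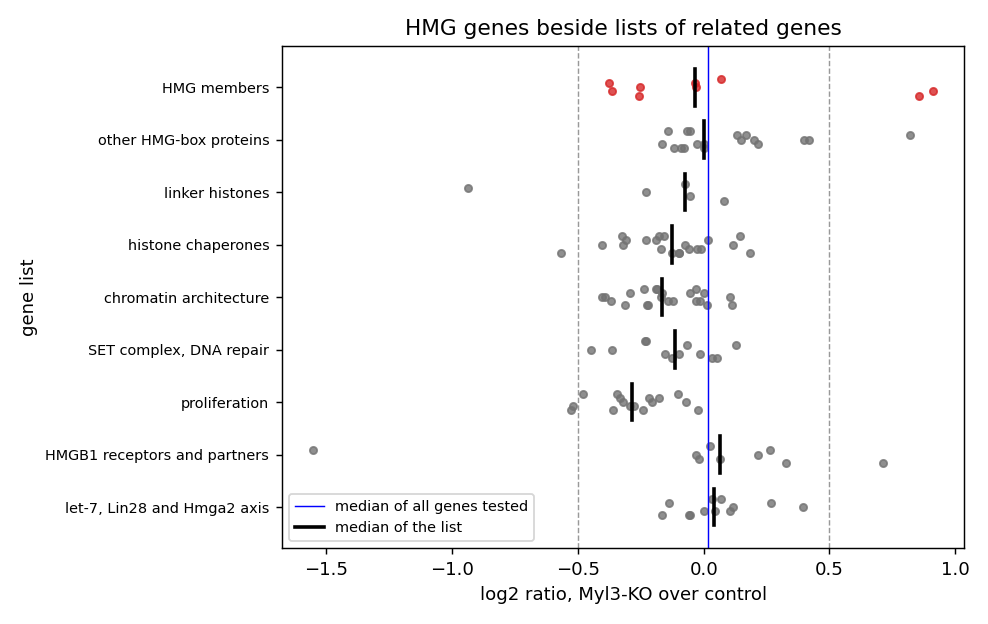
Log2 ratio, *Myl3*-KO over control, for each tested gene of the HMG set (red) and of lists of related genes (grey), with a black bar at each list's median, a blue line at the median of all genes tested and dashed lines at 0.5 in either direction. The HMG set spans from -0.38 to 0.91 around a median of -0.03, and all proliferation genes lie below 0.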

How the data were processed

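RNA-seq values of 1 control and 1 *Myl3*-KO library were used. The table deposited by the authors holds unscaled expected counts (estimated, and so not all whole) and FPKM values, scaled by gene length and library and rounded to 2 decimals. The processing notes name the build GRCm38 (mm10), while aligner, counter and strand setting are not given in the sources used here. The labels name a SMARTER mRNA kit and the study's methods an enrichment with oligo beads. The control column is headed NC and was read as control because the other is headed KO. Annotation columns of the table were not used.

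Counts were divided by the library totals (17612435 and 13477977), and counts under 3 were raised to 3, a floor of 0.170 CPM (control) and 0.223 CPM (*Myl3*-KO). Intervals are 95% Clopper-Pearson intervals of the *Myl3*-KO share of a gene's reads for ratios, and exact Poisson intervals for levels. The filter was at least 10 counts over both libraries. With 1 library per genotype no test was run. Alternatives used edgeR 4.0.16 (TMM), DESeq2 1.42.0 size factors, FPKM, 1 added count, other limits and filters, and the sum of *Hmgn2* with its counted copy. The ratio script was tested on simulated data. Coordinates, coding sequences and 3′ untranslated regions are from GENCODE M21, and promoters and microRNAs from RefSeq. Python 3.11.15 and R 4.3.3 were used.

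The members and gene lists were chosen with earlier results of these data known. Named were all members, genes of the HMG-box, linker histone, HMGB1 receptor and let-7 lists past 0.5 with at least 100 counts or at 0 in both libraries, up to 4 genes farthest from 0 with at least 100 counts of the other lists, a copy of *Hmgn2*, and *Myl3*. Results for some single genes, among them the sums of other members with copies, are not reported here. Other names were chosen after their values were seen, among them *Lef1*, *Ly96*, *Cxcr4*, *Hist1h1d*, *H1f0*, *Ager*, *Lin28b*, *Igf2bp1*, *Igf2bp2*, *Dicer1*, *Col2a1*, *Col9a1*, *Comp* and *Mki67*.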

Additional observations from a re-analysis of the deposited data

How the results depend on the processing

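No paired analysis was possible because each genotype had 1 library. The ratios of single HMG genes moved by less than their counting intervals under all 37 alternatives (other scalings, FPKM, 1 added count, and for *Hmgn2* the sum with its copy). The list medians moved by less than the counting interval of the gene nearest the median under 56, most for muscle with 1 gene tested, from -0.29 to 0.00 with FPKM. *Hmga2* ranged from 0.89 to 0.91, *Hmgb2* from -0.40 to -0.38, *Hmgb3* from 0.04 to 0.07 and *Hmga1* from 0.66 to 0.85.

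Counts depended on the limit. At a limit of 1, 0 HMG genes were higher. The sum of *Hmgn2* with its copy, added for the counts after seeing the data, changed neither. At a limit of 0.25, 4 were lower instead of 0, with *Hmgb1* and *Hmgn1* close to that limit. The share of all genes higher was 20.2% at 0.25 and 2.16% at 1, 1.19% with at least 1000 counts and 1.61% with at least 500, a filter added after seeing the data. The share lower was 14.1% at 0.25, 1.19% at 1, 2.43% without a filter, 2.20% with at least 10 counts in each library, 0.72% with at least 1000 counts and 0.767% with at least 500. Ordered by CPM instead of FPKM, 4 of the 9 genes kept their place, and by FPKM in *Myl3*-KO 7 did. Depth limits *Hmga1* most, with 40.08 and 55.56 counts.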
